A study of Mus musculus with 6 samples.

Results

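The genes described are 37 genes of the type I interferon response, taken as a list of sensors, transcription factors and effectors and matched by symbol to the deposited count matrix. Of the 37, 36 were among the 26049 genes of the matrix, and Mx1 was not analysed here. The data are single-nucleus RNA counts from hippocampi of male PS19 mice, which carry human tau with the P301S mutation under the mouse prion protein promoter. All 6 libraries share this background, and each is a different combination: sham surgery with AAV-GFP, right hippocampus; sham with AAV-VEGFC, right; and controlled cortical impact over the right hemisphere, a mild traumatic brain injury (TBI), with AAV-GFP or AAV-VEGFC, right and left for each. AAV-GFP is the control vector and AAV-VEGFC carries vascular endothelial growth factor C. The labels give neither the ages nor how many mice stand behind a library, so p-values weigh only the spread between these libraries. In the edgeR test that spread is largely pooled over genes. No library has a replicate of its own combination, and the vector comparison rests on 3 libraries against 3. The labels used here name no mice, so the right and left TBI libraries of a vector may share animals and not be independent.

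Type I interferons bind a receptor made of Ifnar1 and Ifnar2, whose kinases Jak1 and Tyk2 phosphorylate Stat2. Stat2 joins Irf9 in a complex that enters the nucleus and binds a DNA element called ISRE, and the genes that it switches on sense viral RNA, block translation, modify proteins with Isg15 and damp the signal again. In the brain, microglia and astrocytes are known to show this response in infection, in tau and amyloid models and with age.

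The 6 libraries held 28650 nuclei and 15358208 to 18379148 unique molecular identifiers (UMIs, each a counted RNA molecule). The authors' 9 deposited cell classes were used, and levels are CPM, the counts of a class's summed nuclei in a library divided by their total UMIs and scaled to a common total. Marker genes matched the class names: summed astrocyte markers were at 16794 to 17501 CPM in astrocytes, and microglial markers at 10051 to 11784 CPM in microglia. Markers of endothelial cells summed to 42.5 to 71.7 CPM in astrocytes. CPM is not per gene length, so levels are compared between classes or libraries and never between genes.

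The promoters are shown because the ISRE is the element through which these genes are known to respond. RefSeq windows (GRCm38.p6, 250 bases before to 50 after a start site) were present for 29 of the 36 genes. The ISRE core was searched as GAAANNGAAA on both strands, which reads TTTCNNTTTC on the other. It occurred in 16 of the 29 genes, or 55.2%, against 3.99% of all 27025 genes with a window. The gamma-activated sequence was searched as TTCNNNGAA and occurred in 8 of the 29 (27.6%), against 9.55% of all genes. A match describes letters in this window and is no evidence of binding.

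The windows shown are those of the 10 astrocyte genes with the smallest vector p-values for which one was given, on the strand of the gene, with the ISRE match in capitals. Ddx60 and Ifit3 each hold a pair of matches, Trim30a and Ddx58 hold 1 each, and Oasl2, Parp12 and Trim25 hold none. Counted from the start site, the matches begin at -53 and -19 in Ddx60, at -156 and -122 in Ifit3, at -36 in Trim30a and at 2 in Ddx58.
Oasl2 (chr5:114896684-114896983, plus strand): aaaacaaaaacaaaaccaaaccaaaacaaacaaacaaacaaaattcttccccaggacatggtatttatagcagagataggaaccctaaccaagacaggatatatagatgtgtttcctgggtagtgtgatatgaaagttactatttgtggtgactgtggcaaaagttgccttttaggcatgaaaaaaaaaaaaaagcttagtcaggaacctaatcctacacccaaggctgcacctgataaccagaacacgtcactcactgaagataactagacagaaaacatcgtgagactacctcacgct
Ddx60 (chr8:61927837-61928136, plus strand): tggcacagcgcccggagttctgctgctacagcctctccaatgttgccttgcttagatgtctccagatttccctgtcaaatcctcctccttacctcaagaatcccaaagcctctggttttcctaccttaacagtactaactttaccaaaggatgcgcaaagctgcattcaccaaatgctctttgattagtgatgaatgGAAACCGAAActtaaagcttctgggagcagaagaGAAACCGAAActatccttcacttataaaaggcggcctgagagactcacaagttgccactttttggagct
Trim30a (chr7:104465144-104465443, minus strand): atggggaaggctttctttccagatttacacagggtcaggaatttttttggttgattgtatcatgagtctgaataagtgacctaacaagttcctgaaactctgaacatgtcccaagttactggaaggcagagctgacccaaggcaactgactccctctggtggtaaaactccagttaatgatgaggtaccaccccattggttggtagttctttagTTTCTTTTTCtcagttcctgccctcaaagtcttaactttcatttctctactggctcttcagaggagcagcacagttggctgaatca
Ifit3 (chr19:34583279-34583578, plus strand): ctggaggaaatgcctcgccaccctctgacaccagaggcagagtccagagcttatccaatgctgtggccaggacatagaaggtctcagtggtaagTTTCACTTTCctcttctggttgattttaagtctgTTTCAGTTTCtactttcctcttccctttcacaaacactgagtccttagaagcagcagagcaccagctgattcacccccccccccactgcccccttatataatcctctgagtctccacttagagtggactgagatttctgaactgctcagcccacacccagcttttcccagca
Parp12 (chr6:39118300-39118599, minus strand): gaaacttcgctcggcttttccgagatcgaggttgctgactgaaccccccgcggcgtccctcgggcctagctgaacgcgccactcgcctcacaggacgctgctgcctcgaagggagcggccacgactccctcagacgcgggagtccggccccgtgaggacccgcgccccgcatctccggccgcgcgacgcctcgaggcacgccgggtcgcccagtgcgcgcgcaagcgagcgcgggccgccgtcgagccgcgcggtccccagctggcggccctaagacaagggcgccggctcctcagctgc
Ddx58 (chr4:40239776-40240075, minus strand): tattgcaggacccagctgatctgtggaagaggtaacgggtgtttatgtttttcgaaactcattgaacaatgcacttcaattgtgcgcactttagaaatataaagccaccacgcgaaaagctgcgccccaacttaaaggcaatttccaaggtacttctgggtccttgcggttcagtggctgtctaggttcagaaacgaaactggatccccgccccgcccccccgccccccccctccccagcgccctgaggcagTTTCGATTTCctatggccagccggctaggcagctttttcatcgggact
Trim25 (chr11:88999153-88999452, plus strand): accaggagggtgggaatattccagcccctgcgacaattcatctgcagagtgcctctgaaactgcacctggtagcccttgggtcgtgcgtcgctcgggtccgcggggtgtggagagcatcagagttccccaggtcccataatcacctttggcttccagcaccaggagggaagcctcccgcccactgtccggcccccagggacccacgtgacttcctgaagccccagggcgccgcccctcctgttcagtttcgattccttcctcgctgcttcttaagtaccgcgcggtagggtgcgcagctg

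Across cell classes the 36 genes were highest in microglia and fibroblasts. Their summed level was 2171 ± 361 CPM (SD, n = 6 libraries) in microglia and 1769 ± 392 in fibroblasts, with overlapping libraries. Astrocytes followed at 960 ± 124, below every microglial and every fibroblast library. Oligodendrocyte precursors (OPC) stood at 678 ± 151 and choroid plexus epithelium at 633 ± 106, which overlapped. Oligodendrocytes stood at 344 ± 62.7, and the 3 neuron classes at 200 to 207. Gene by gene, 17 of the 36 genes had their highest class mean in microglia, 15 in fibroblasts, 2 in choroid plexus epithelium, 1 in astrocytes and 1 in the mixed neuron class. The classes were drawn by the authors from the same counts, so these are descriptions with no test. Microglia and fibroblasts had 406 and 412 nuclei in all, against 5692 astrocytes, and their single-gene values are correspondingly coarse. The fibroblast class held fibroblast markers at a mean of 5039 CPM, and also those of other cells. Mural markers averaged 1071 CPM there, endothelial markers 448 and astrocyte markers 2089, and their part in its levels was not tested. In 5 of 6 libraries only 0 to 3 microglial nuclei had a deposited doublet score of at most 0.05, against 94 of 138 in TBI VEGFC left, and the part of this in the microglial levels was not tested.

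**Figure D1:**
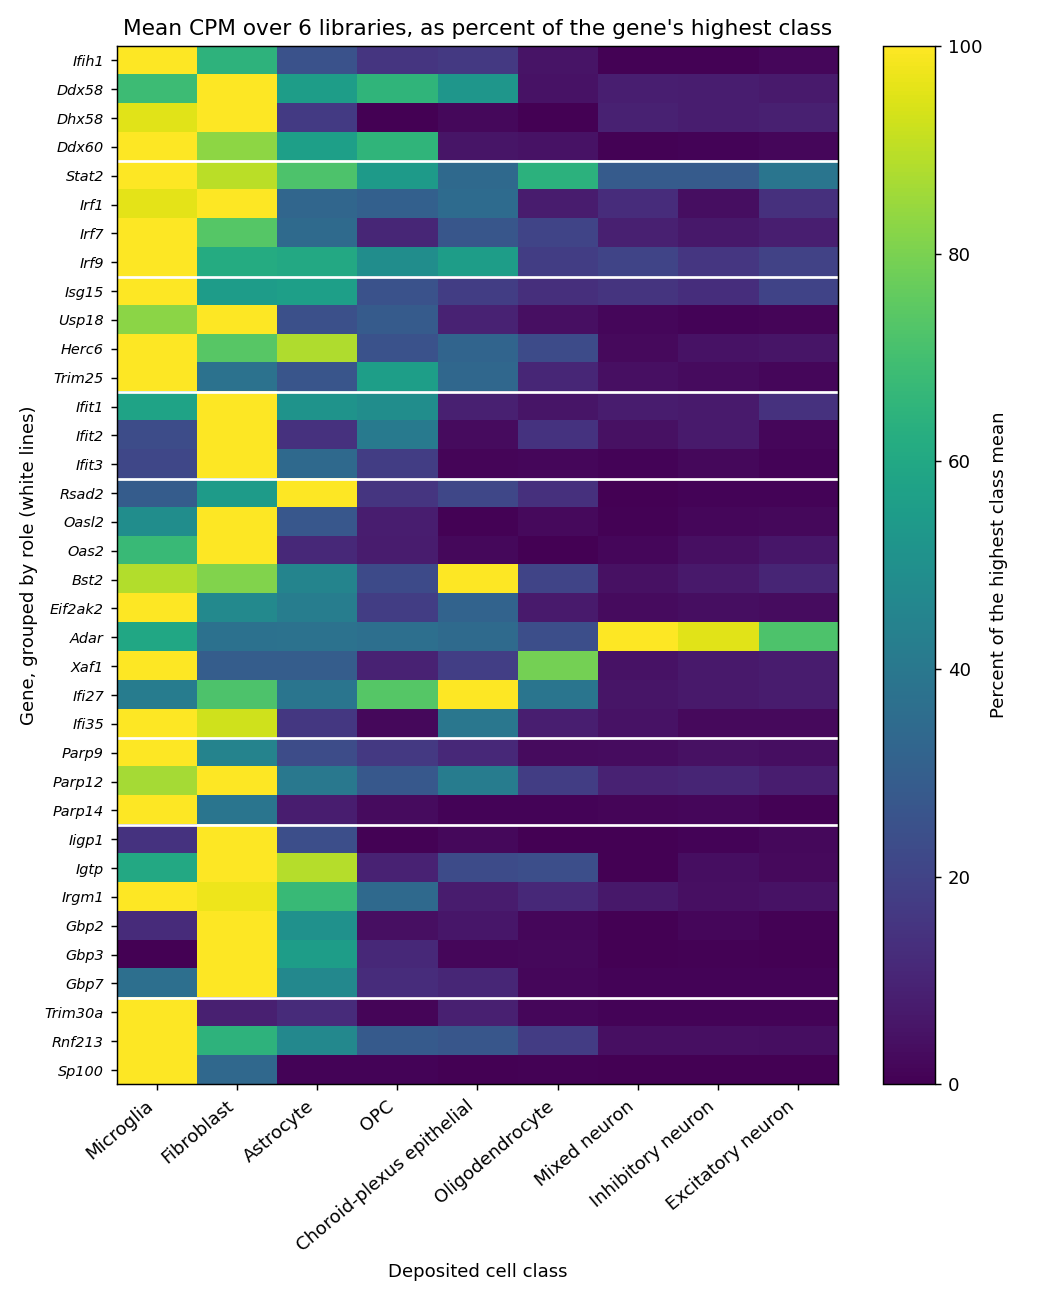
Mean CPM over 6 libraries of each of the 36 genes (rows, grouped by role) in the 9 deposited classes (columns), as a percent of the gene's own highest class. Bright cells gather in the microglia and fibroblast columns, Rsad2 peaks in astrocytes, Ifi27 and Bst2 in choroid plexus epithelium and Adar in neurons.

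Among microglial genes, Trim30a, a TRIM protein that restrains inflammasome and Toll-like receptor signals, had the widest gap to the next class. Its microglial level was 195, 258, 236, 120, 272 and 251 CPM in order of sham GFP, sham VEGFC, the right and left libraries of TBI GFP, and the right and left of TBI VEGFC, a mean of 222 and 8.14 times that in astrocytes. Parp14, an ADP-ribosyltransferase, was at 221 ± 28.7 CPM in microglia, 2.57 times its level in fibroblasts. Sp100, a nuclear body protein, was at 153 ± 39.9 CPM, 2.97 times fibroblasts. Parp9, a partner in the ADP-ribosylation of proteins, was at 119 ± 50.8 CPM, 2.25 times fibroblasts. All 4 were above the next class in 6 of 6 libraries.

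Fibroblasts led for Iigp1, Ifit3, Ifit2 and Oasl2. Iigp1, an interferon-inducible GTPase that acts on the vacuoles of intracellular parasites, was at 79.3 ± 72.1 CPM in fibroblasts, 4.14 times astrocytes, and spread from 0 to 193 CPM between libraries. Ifit3 and Ifit2, of the family that binds foreign RNA and blocks its translation, were at 76 ± 19.3 and 47.5 ± 22.3 CPM and were above the next class in 6 of 6 libraries. Oasl2, a 2'-5'-oligoadenylate synthetase-like protein, was at 97.4 ± 73.7 CPM, with 20.3 CPM in its lowest library and 219 in its highest. Ifit3 has a close copy (Ifit3b), and Trim30a, Gbp3 and Iigp1 also belong to families with near relatives, so reads of one may have been counted for another.

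Choroid plexus epithelium was the highest class of Ifi27, a small protein of mitochondrial and nuclear membranes, at 160 ± 20.2 CPM against 118 ± 30.5 in OPC. It was also the highest of Bst2 (tetherin, which holds budding virus at the membrane), at 31.9 ± 10.8 CPM, a level that overlapped the 28.2 ± 34.1 CPM of microglia. Rsad2 (viperin, an enzyme that makes a chain-terminating nucleotide) was the only 1 of the 36 highest in astrocytes, at 18.2 ± 2.52 CPM against 9.97 ± 9.34 in fibroblasts. Adar, which edits adenosine to inosine in double-stranded RNA, was the only 1 highest in neurons. It reached 95.6 ± 8.35 CPM in the mixed neuron class and 91.4 ± 6.11 in inhibitory neurons.

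Of the pathway genes upstream, Ifnar2 averaged 247 ± 64.4 CPM in microglia and 38 ± 4.95 in astrocytes, and Ifnar1 averaged 118 ± 46.2 and 28.5 ± 2.13. Irf3, which switches on interferon genes after viral sensing, averaged 61.3 ± 6.32 CPM in astrocytes and 52.4 ± 22.5 in microglia. Of the 10 interferon genes listed, Ifnk alone was among the genes analysed here, with 130 UMIs over all nuclei.

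The vector comparison set VEGFC libraries against GFP libraries over 3 matched contexts (sham right, TBI right, TBI left). No gene of the 36 passed an adjusted p of 0.05 in any class by edgeR's quasi-likelihood test, out of 118 gene-by-class tests over 34 genes. The share called over all genes and classes was 0.0281%. At an unadjusted p under 0.05 there were 15 of the 118 by edgeR, 4 by DESeq2 and 14 by limma-voom, where 5.41% of all genes and classes were by edgeR, and neither of the other tools called any. Irf7, which drives the later wave of interferon genes, and Igtp, an interferon-inducible GTPase, were too low for a test in every class.

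In astrocytes 31 of the 36 genes were tested, and 26 of them had a positive fitted difference with VEGFC, with a median log2 fold of 0.21. None of the 31 was called, where 0.0543% of all genes in astrocytes were. Over all 12883 genes tested in astrocytes, 49.9% were on the higher side, with a median of -0.001. The 5 genes below the filter in astrocytes were Dhx58, Irf7, Oas2, Igtp and Sp100, with 17 to 43 UMIs each over the 6 libraries. By context, the VEGFC library was above the GFP library for 25 of 31 genes in sham right (median difference 0.25), for 16 in TBI right (0.03) and for 22 in TBI left (0.18). Higher in all 3 contexts were 11 of 31, and lower in all 3 were 3. Markers of microglia moved with the sham pair: their summed level in astrocytes was 411 CPM in the sham VEGFC library and 282 in sham GFP, against 237 to 291 in the other 4, and their part in the result was not tested. Without the nuclei that held any microglial or endothelial marker UMI, 22 of 28 tested genes were on the higher side and the median was 0.20. That step kept 431 to 654 astrocyte nuclei a library, where all nuclei were 778 to 1111. It cannot remove other cells' RNA that left no marker UMI.

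Usp18, the protease that removes Isg15 from proteins and blocks the interferon receptor, had the smallest p of the 31. Its gene lies at chr6:121245906-121270917 (mm10). Its astrocyte level was 11.7, 11 and 10.4 CPM in the GFP libraries (sham, TBI right, TBI left) and 27, 17 and 24.8 CPM in the VEGFC libraries. All VEGFC libraries lay above all GFP libraries. The fitted log2 fold was 1.07 (SE 0.25), with an adjusted p of 0.0626 by edgeR's quasi-likelihood test, just outside the threshold, and 0.0159 to 1 over the alternatives. In the Astrocyte 1 and Astrocyte 3 clusters taken alone, its log2 folds were 1.09 (SE 0.41) and 0.86 (SE 0.32), with adjusted p of 0.76 and 0.594 by edgeR. In these clusters 0 of 51 tests passed, where 0.0241% of all did. At an unadjusted p under 0.05 were 8 of the 51 by edgeR, 0 by DESeq2 and 8 by limma-voom. By edgeR 5.93% of all tests in these clusters were.

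Ifi27 was the other gene whose VEGFC and GFP libraries did not overlap on the higher side. Its level was 48.1, 52.8 and 57.5 CPM with GFP and 66.8, 71.7 and 75.1 CPM with VEGFC, a log2 fold of 0.47 (SE 0.13 by edgeR, adjusted p 0.293). Trim25, a ligase that activates the sensor Ddx58, did not overlap on the lower side. It was at 12.4, 11.5 and 9.29 CPM with GFP and at 7.17, 7.9 and 7.9 CPM with VEGFC (log2 fold -0.48, SE 0.33, edgeR adjusted p 0.894). So 2 of 31 were separated upward and 1 downward, where 3.94% and 7.23% of all genes were.

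The other 7 named genes had positive log2 folds with overlapping libraries, and in 6 of them the sham VEGFC library was the highest of the 6. Parp14 was at 15.8, 12.9 and 11.6 CPM with GFP and 31.5, 14 and 20.9 with VEGFC (log2 fold 0.71, edgeR adjusted p 0.449). Oasl2 was at 17.2, 19.4 and 27.9 CPM with GFP and 37.5, 23.1 and 33.9 with VEGFC (0.57, edgeR adjusted p 0.476). Ddx60, a helicase that aids RNA sensing, was at 57.1, 52.3 and 75.4 CPM with GFP and 96.6, 57.1 and 81.9 with VEGFC (0.37, edgeR adjusted p 0.496).
In TBI left, Ddx60 and Oasl2 differed less between the vectors than in sham. Ifit3 was at 25.4, 20.4 and 21.5 CPM with GFP and 44.1, 21.3 and 23.7 with VEGFC, so its log2 fold of 0.40 came mostly from the sham pair. Trim30a had the same fold, 0.40, with its highest value, 41.2 CPM, in TBI VEGFC left and its lowest, 19.9, in sham GFP. Parp12, an ADP-ribosyltransferase, and Ddx58, the RNA sensor RIG-I, had log2 folds of 0.27 and 0.23 with edgeR adjusted p of 0.869 for both.

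**Figure D2:**
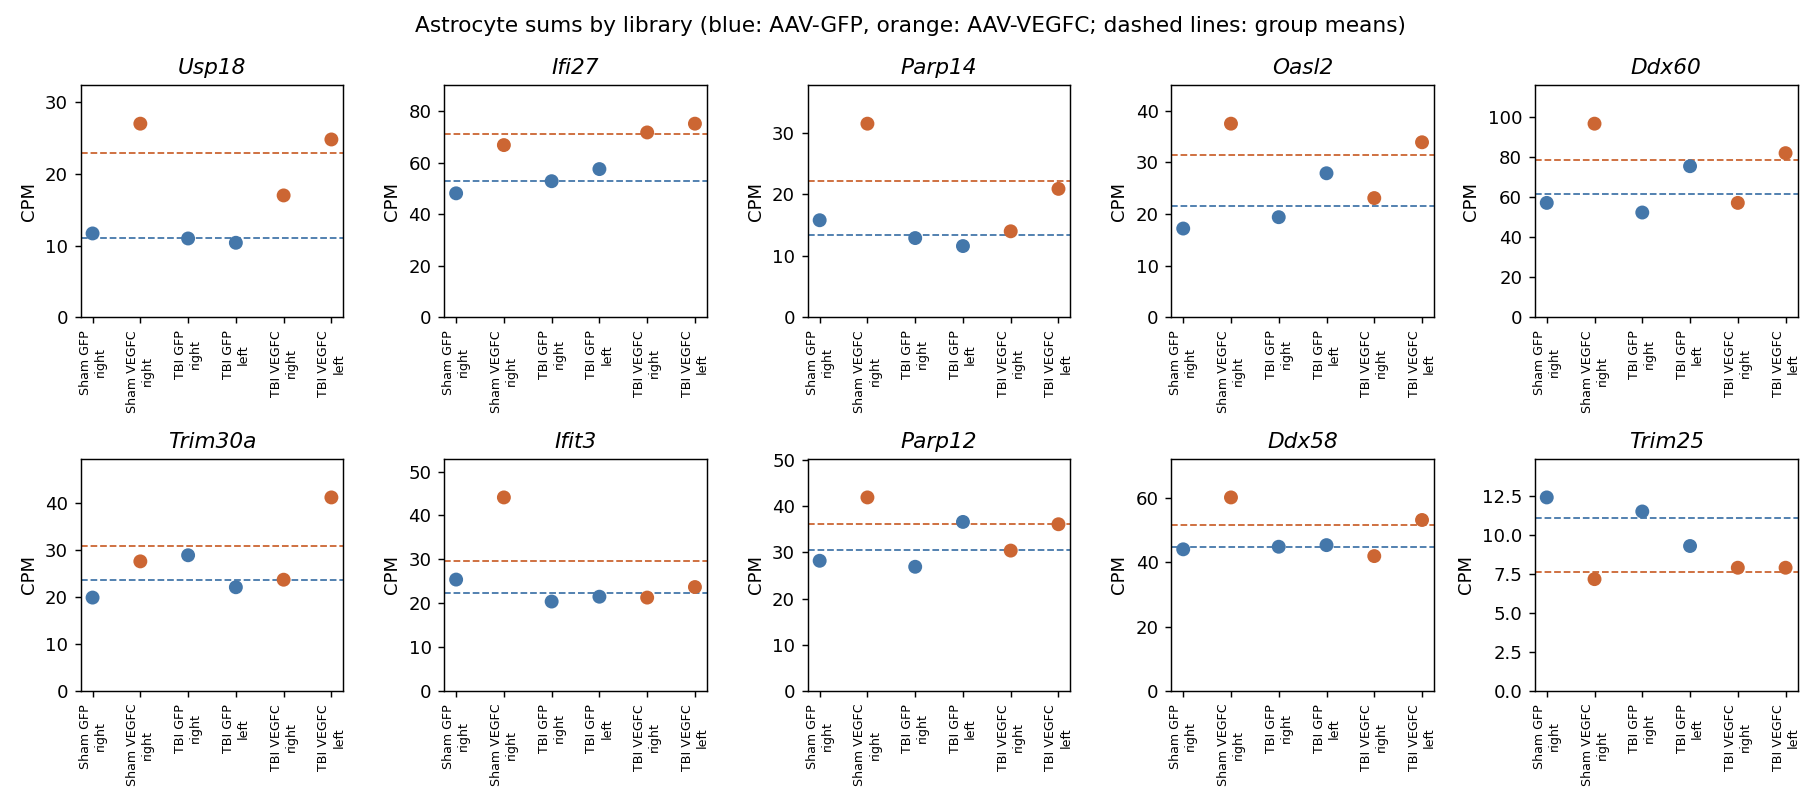
CPM of the 10 genes with the smallest vector p-values in astrocytes (1 panel a gene, 1 point a library, blue for AAV-GFP and orange for AAV-VEGFC, dashed lines for the means of 3). Orange lies wholly above blue for Usp18 and Ifi27 and wholly below for Trim25, and the sham VEGFC library stands highest for Parp14, Oasl2, Ddx60, Ifit3, Parp12 and Ddx58.

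By role, all 3 RNA sensors tested (Ifih1, Ddx58, Ddx60), all 3 IFIT genes and all 3 ADP-ribosyltransferases were on the higher side in astrocytes, with medians of 0.23, 0.21 and 0.27. Of the interferon-inducible GTPases 4 of 5 were, and of the antiviral effectors 6 of 8. None of these passed the test. Of 21 pathway genes tested 12 were on the higher side, with a median of 0.01. The log2 folds of Ifnar1, Ifnar2, Jak1, Tyk2 and Irf3 lay between -0.08 and 0.06. Among 47 other interferon-stimulated genes that are not in the list, 31 were on the higher side, with a median of 0.09. At an unadjusted p under 0.05 were 5 on the higher and 3 on the lower side, and 6.37% of all genes in astrocytes.

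In the other classes fewer genes could be tested. All 8 tested in OPC and 6 of 7 in microglia were on the higher side with VEGFC, with medians of 0.27 and 0.52. By context OPC had 6 of 8 higher in sham right (median 0.25), 8 of 8 in TBI right (0.93) and 3 of 8 in TBI left (-0.03). Microglia had 4, 6 and 5 of 7. Markers of border macrophages (6 genes, none at 0) moved with the microglial values: they summed to 123, 47.1 and 103 CPM with GFP (sham, TBI right, TBI left) and to 662, 260 and 217 with VEGFC, and their part was not tested. In microglia Rnf213, a large ligase that coats bacteria and lipid droplets, was at 71.7, 126 and 138 CPM with GFP and 147, 295 and 193 with VEGFC (log2 fold 0.91, SE 0.36, edgeR adjusted p 0.71). Microglial Trim30a had a log2 fold of 0.53 (edgeR adjusted p 0.912). In OPC, Ddx60 and Ddx58 had log2 folds of 0.60 and 0.43.
Fibroblasts lay the other way, with 3 of 11 on the higher side and a median of -0.51. Fibroblast Iigp1 was at 133, 78.4 and 193 CPM with GFP and 27.8, 0 and 43.7 with VEGFC. The VEGFC libraries were all below the GFP libraries, and the log2 fold was -2.59 (SE 0.67, edgeR adjusted p 0.138), on 47 UMIs in all. Fibroblast Stat2, the partner of Irf9, had a log2 fold of -0.87 (edgeR adjusted p 0.994).

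None of the genes passed in the remaining classes either. Excitatory neurons had 16 of 27 on the higher side (median 0.09), with Irf9 at 0.47 and Herc6, a ligase for Isg15, at -0.55 (edgeR adjusted p 0.634 and 0.654). Oligodendrocytes had 3 of 6 (median 0.04, Ifi27 at 0.23 and Rnf213 at 0.26). Choroid plexus epithelium had 4 of 12 (median -0.08, Adar at -0.40 and Stat2 at -0.41). Inhibitory neurons had 6 of 13, with Stat2 at -0.30 and Parp9 at 0.48. In the mixed neurons 1 of 3 was on the higher side (median -0.20), with Irf9 at -0.27 and Stat2 at -0.20.

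The injury comparison set the 2 TBI right libraries against the 2 sham right libraries. It gave 1 call in 118 tests, Iigp1 in astrocytes, where 0.0782% of all genes and classes were called. At an unadjusted p under 0.05 there were 22 by edgeR, 2 by DESeq2 and 20 by limma-voom, where 5.03% of all genes and classes were by edgeR. Astrocyte Iigp1 was at 38.5 and 25.9 CPM in sham GFP and sham VEGFC and at 8.46 and 7.9 CPM in TBI GFP right and TBI VEGFC right. It fell by 1.91 on the log2 scale (SE 0.31, edgeR adjusted p 0.000261), and in cluster Astrocyte 3 alone by 1.92 (SE 0.32, edgeR adjusted p 0.000476), from 110 and 57.1 CPM to 23 and 19.1. Of all genes, 0.326% were called in astrocytes and 0.0771% in the clusters.

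This call rested on few nuclei. Of the 56 Iigp1 UMIs in sham GFP astrocytes, 31 lay in 1 nucleus of Astrocyte 3, which had 7354 UMIs, 91 of them from 17 of the 36 genes. Without it sham GFP was at 17.3 CPM, still above both TBI right libraries, and the log2 fold was -1.32 (SE 0.33) with an edgeR adjusted p of 0.0525. Astrocyte nuclei with any Iigp1 UMI numbered 12 in sham GFP, 19 in sham VEGFC, 8 in TBI GFP right, 14 in TBI GFP left, 6 in TBI VEGFC right and 17 in TBI VEGFC left. The fold kept its direction under all 15 alternatives, from -2.50 to -1.31, and lost the call under 6 of them: with DESeq2 (adjusted p 1), with doublet scores of at most 0.05 (edgeR adjusted p 0.123), without that nucleus, without nuclei rich in these genes (0.0997), and without the sham GFP library (0.0788) or the TBI VEGFC right library (0.0546). In Astrocyte 3 alone the call was lost under 6 of 14 alternatives, and without that nucleus the log2 fold was -1.28 (edgeR adjusted p 0.196).

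**Figure D3:**
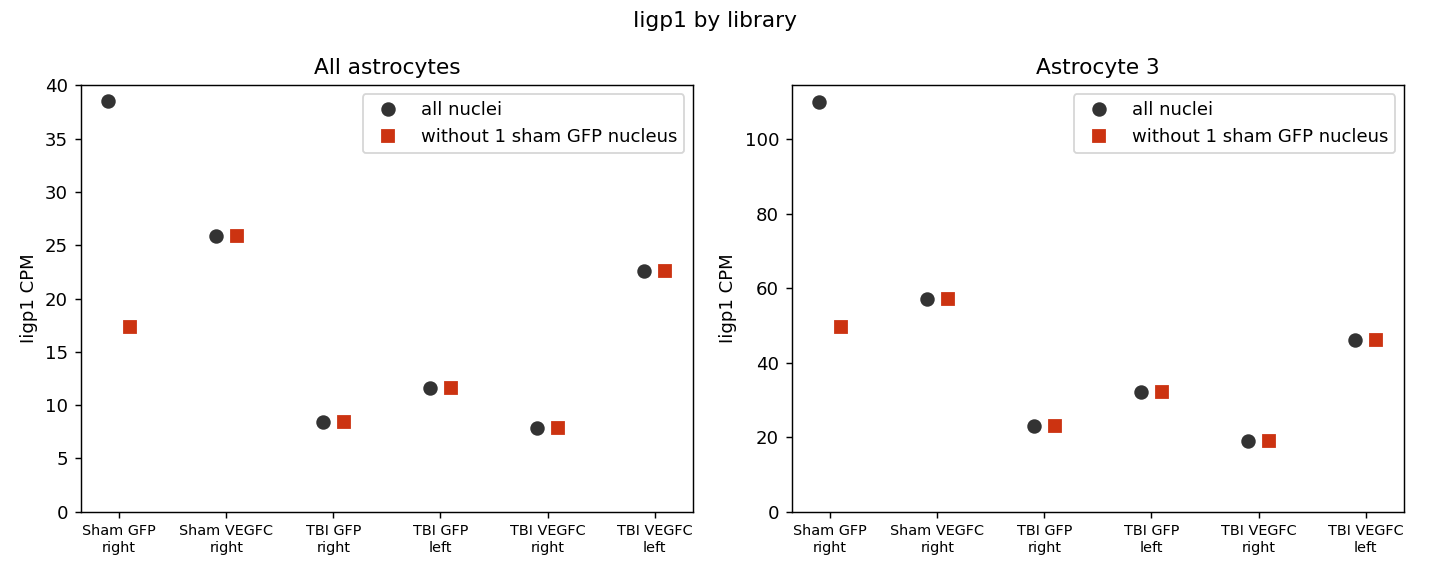
Iigp1 CPM in all astrocytes (left) and in cluster Astrocyte 3 (right), 1 point a library, with all nuclei (black) and without the nucleus that held 31 of the 56 sham GFP UMIs (red). Both TBI right libraries are the lowest pair in either case, and sham GFP drops from 38.5 to 17.3 CPM in all astrocytes.

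With Iigp1 counted, 23 of the 31 genes tested in astrocytes lay lower in TBI right than in sham right. The median log2 fold of the 31 was -0.27, where 49.3% of all genes lay higher and their median was -0.003. Both TBI right libraries were below both sham libraries for 15 of the 31, Iigp1 among them, and above for 0. Such separation held for 20.8% of all astrocyte genes downward and for 14.2% upward. The IFIT genes had the lowest median of the roles, -0.84: Ifit1 was at -0.84 (SE 0.38), Ifit2 at -0.91 (SE 0.49) and Ifit3 at -0.70 (SE 0.24), with edgeR adjusted p of 0.646, 0.78 and 0.328.
Ifit1, for example, was at 11.7 and 15.4 CPM in the sham libraries and at 8.46 and 6.08 in TBI right. Adar was at 44 and 43.6 CPM in sham and 28.4 and 25.5 in TBI right (log2 fold -0.67, SE 0.21, edgeR adjusted p 0.199). Bst2 was at 19.3 and 21.5 CPM in sham and 9.46 and 14 in TBI right (-0.78, edgeR adjusted p 0.524), and Parp14 at -0.74 (edgeR adjusted p 0.487). None of these passed. Ifnar1 and Ifnar2 had log2 folds of -0.18 and -0.12. Of the 47 other interferon-stimulated genes tested in astrocytes, 23 lay higher and 24 lower, with a median of -0.01.

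In fibroblasts 10 of 11 genes lay lower in TBI right (median -0.99), with Parp12 at -1.86 (SE 0.64, edgeR adjusted p 0.599) and Ddx60 at -1.25 (edgeR adjusted p 0.862). Fibroblast Parp12 was at 114 and 130 CPM in sham and 39.2 and 20.3 in TBI right. Astrocyte markers summed to 1738 and 2059 CPM in fibroblasts of sham and 1619 and 1428 of TBI right, and their part was not tested. In choroid plexus epithelium 10 of 12 lay higher (median 0.14). There Ddx58 was at 31.4 and 25.6 CPM in sham and 59.5 and 50.6 in TBI right (log2 fold 0.99, SE 0.32, edgeR adjusted p 0.397), and Trim30a had a log2 fold of 1.09 (edgeR adjusted p 0.775).
Oligodendrocyte Stat2 was at 65.5 and 70.1 CPM in sham and 38.9 and 25.2 in TBI right (-1.04, SE 0.31, edgeR adjusted p 0.22), and Rnf213 there was at -0.56. In OPC, Herc6 was at -1.57 and Ddx60 at -0.72, the latter with 22.6 CPM in TBI GFP right and 115 in TBI VEGFC right, where the sham libraries were at 106 and 119. Microglia had 4 of 7 higher (median 0.08), with Rnf213 at 0.96 and Ddx60 at -0.47 (edgeR adjusted p 0.806 and 0.97).
In neurons the levels were low: excitatory Usp18 and Irgm1, at -1.67 and -1.39, were at no more than 1.69 and 1.92 CPM in any library, and inhibitory Ifi27 and Rnf213 had log2 folds of 0.56 and -0.73. Mixed neuron Irf9 and Stat2 had 1.71 and 0.63. Summed endothelial markers in astrocytes were at 57.1 and 42.5 CPM in sham and 71.7 and 44.4 in TBI right, and microglial markers at 282 and 411 against 258 and 262. Choroid plexus markers were at 490 and 733 in sham and 727 and 326 in TBI right, and their part in these folds was not tested.

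The side comparison set TBI left against TBI right, and so uses the same 2 TBI right libraries as the injury comparison. The 2 sets of folds are therefore not independent. It gave 0 calls in 118 tests by edgeR, 17 at an unadjusted p under 0.05 (1 by DESeq2 and 16 by limma-voom, neither with a call), and 0.0318% of all genes and classes were called. By edgeR 3.49% of all were at an unadjusted p under 0.05. In astrocytes 25 of 31 genes lay higher on the left, with a median log2 fold of 0.18 (all genes 0.001). Both left libraries were above both right libraries for 15 of the 31 and below for 1, Irf1, where 15% and 14.6% of all genes were so.
Ddx60 was at 75.4 and 81.9 CPM on the left and 52.3 and 57.1 on the right (log2 fold 0.52, SE 0.16, edgeR adjusted p 1). Iigp1 was at 11.6 and 22.6 CPM on the left and 8.46 and 7.9 on the right (1.06, SE 0.35, edgeR adjusted p 1). The summed level of the 36 genes in astrocytes was 935 and 1155 CPM in sham GFP and sham VEGFC, 821 and 858 in TBI right, and 939 and 1051 in TBI left. TBI right was thus the lowest pair, and TBI left fell within the range of the sham libraries.

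In other classes fibroblasts had 9 of 11 higher on the left (median 0.89). Astrocyte markers in this class moved the same way, with 2829 and 2863 CPM on the left and 1619 and 1428 on the right, as did OPC markers, with 643 and 677 against 444 and 344, and their part was not tested. Fibroblast Oasl2 was at 107 and 219 CPM on the left and 52.2 and 20.3 on the right (log2 fold 2.09, SE 0.68, edgeR adjusted p 0.295), and Ddx58 was at 1.57. The left libraries held only 32 and 27 fibroblast nuclei. Oligodendrocytes had 5 of 6 higher (median 0.23), with Stat2 at 0.74 and Ifi27 at 0.53. Microglia had 3 of 7 higher, with Herc6 at 0.45 and Rnf213 at -0.38, and OPC had 2 of 8 higher, with Herc6 at 1.24 and Adar at -0.83.
Choroid plexus epithelium had 4 of 12 higher, with Adar at -0.71 and Herc6 at -0.51. Excitatory neurons had 8 of 27 higher, with Irgm1 at 1.56 and Ifit1 at -0.83. Inhibitory Parp12 and Ifi27 were at -0.72 and -0.48, and mixed neuron Stat2 and Irf9 at -1.26 and 0.16. None of these passed the test.

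**Figure D4:**
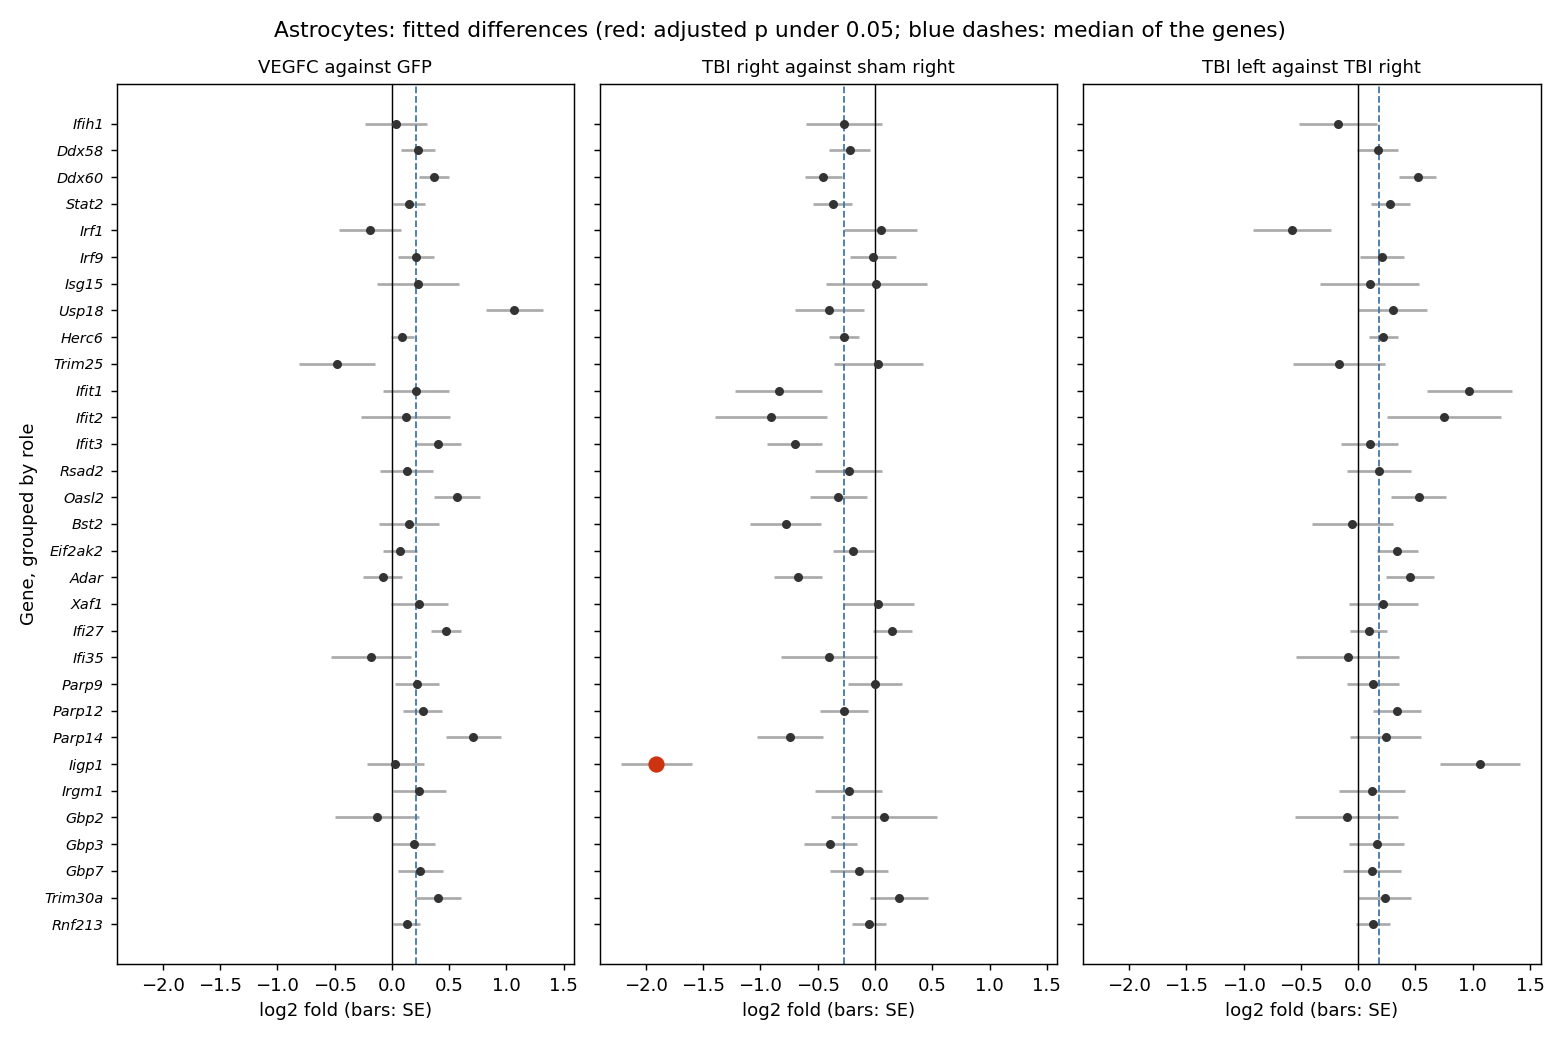
Fitted log2 folds with their SE for the 31 genes tested in astrocytes, in 3 comparisons (dashed line, median of the 31; red, adjusted p under 0.05). The medians are 0.21, -0.27 and 0.18, and Iigp1 in TBI right against sham right is the only red point.

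Within astrocytes the response was uneven between nuclei. Each nucleus was thinned to 1000 UMIs, the smallest having 1001, so that depth does not set the count. After thinning 49.1% of astrocyte nuclei held a UMI of any of the 36 genes (65.4% before, at a median of 1671 UMIs), against 17.4% of excitatory neurons (53.8% before, at a median of 4222). At the far end, 68 of 5692 astrocyte nuclei (1.19%, exact Clopper-Pearson 95% interval 0.929 to 1.51%) held at least 8 such UMIs per 1000, and the highest held 48. These 68 nuclei carried 19.3% of all UMIs of the 36 genes in astrocytes. Without thinning, 139 nuclei (2.44%) held 8 or more.
The limit of 8 marks a range and not a cell type: 24 nuclei had 6 or 7 and 18 had 8 or 9. Under the same limit there were 1 of 12428 excitatory neurons, 0 of 4382 inhibitory neurons (which allows a share of up to 0.0685%), 3 of 2261 oligodendrocytes, 5 of 993 OPC, 16 of 406 microglia (3.94%) and 12 of 412 fibroblasts (2.91%).

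Of the 68 nuclei, 50 were in the authors' cluster Astrocyte 3, 14 in Astrocyte 1 and 4 in Astrocyte 2. They made up 2.77% of Astrocyte 3 (interval 2.06 to 3.64%) and 0.38% of Astrocyte 1 (0.208 to 0.637%), and the share was higher in Astrocyte 3 than in Astrocyte 1 in every library. In Astrocyte 2, with 207 nuclei, it was 1.93% (0.529 to 4.87%), and the summed level of the 36 genes was 1293 ± 547 CPM. Median depths were 1815 and 1608 UMIs. The summed level of the 36 genes was 1356 ± 206 CPM in Astrocyte 3 and 716 ± 66.4 in Astrocyte 1 (SD, n = 6), with no overlap, and without these nuclei it was 817 to 1105 CPM in Astrocyte 3 and 634 to 789 in Astrocyte 1. Astrocyte markers averaged 13897 CPM in Astrocyte 3 and 19355 in Astrocyte 1. Endothelial markers were at 99.8 and 32.2, OPC markers at 211 and 78.6 and microglial markers at 318 and 274. Fibroblast markers (117 and 166), mural markers (150 and 209), neuron markers and choroid plexus markers were lower in Astrocyte 3. The part of other cells' RNA in the cluster levels was not tested. The clusters were formed by the authors on these nuclei, so no test is given.

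By library, 6 of 793 astrocyte nuclei passed the limit in sham GFP (0.757%), 20 of 1111 in sham VEGFC (1.8%), 8 of 1072 in TBI GFP right (0.746%), 13 of 1054 in TBI GFP left (1.23%), 11 of 884 in TBI VEGFC right (1.24%) and 10 of 778 in TBI VEGFC left (1.29%). Over all astrocytes the share was higher with VEGFC in each of the 3 contexts, though in TBI left by little (1.29% against 1.23%). In Astrocyte 3, which held 50 of the 68 nuclei, it was lower with VEGFC in TBI left, 2.49% against 3.27% with GFP. In that cluster it was higher with VEGFC in sham (4.01% against 1.56%) and in TBI right (2.54% against 2.27%). At a lower limit of 5 UMIs per 1000 the share over all astrocytes was 1.13% with GFP and 3.51% with VEGFC in sham. It was 1.31% and 2.04% in TBI right, and 2.18% and 2.7% in TBI left. With 1 library per combination these shares were not tested. With these nuclei left out the median vector fold over 29 tested genes was 0.10, with 25 of 29 on the higher side. Usp18 was then at 4.18, 6.53 and 6.47 CPM with GFP and 16.3, 11.7 and 13.8 with VEGFC, still without overlap. The summed level without them was 768, 705 and 783 CPM with GFP and 907, 713 and 833 with VEGFC.

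**Figure D5:**
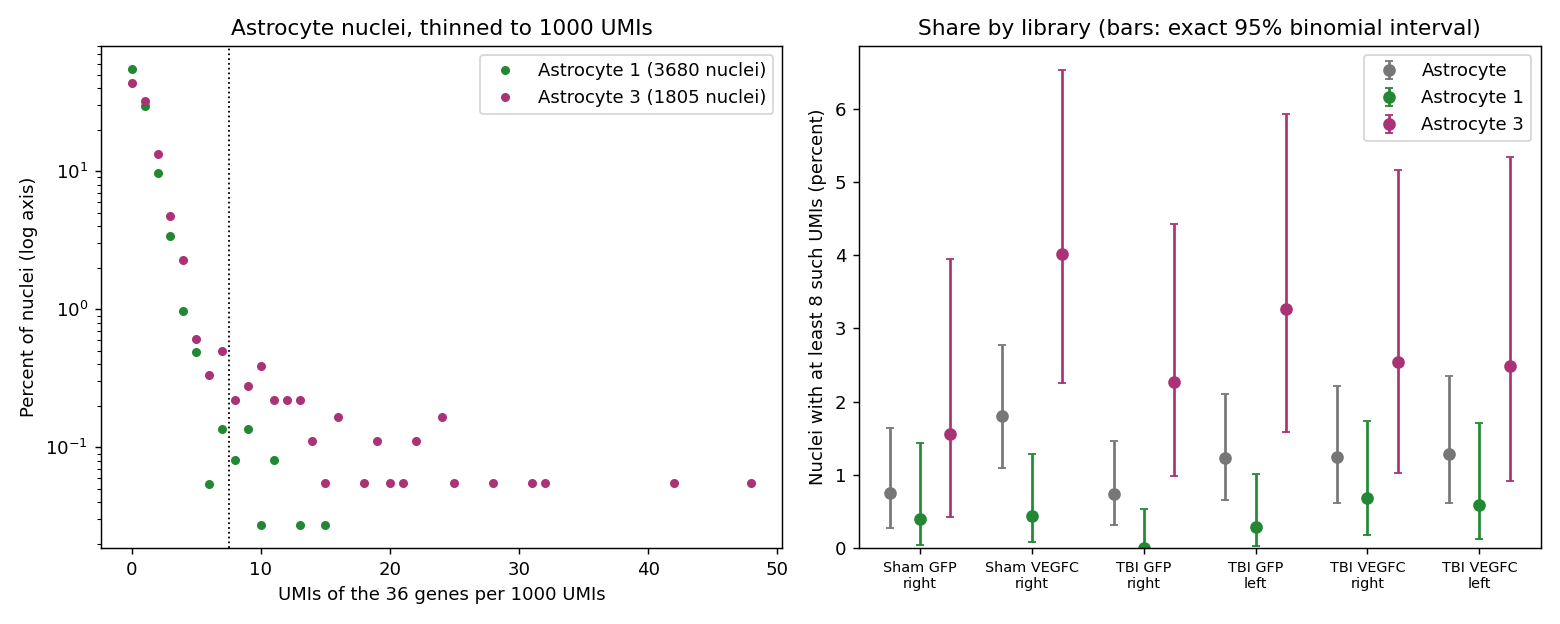
Left, percent of nuclei (log axis) by UMIs of the 36 genes per 1000 UMIs in clusters Astrocyte 1 and Astrocyte 3, with the limit of 8 dotted. Right, percent of nuclei at or above the limit by library, with exact binomial intervals; the intervals cover counting error only, and Astrocyte 3 lies above Astrocyte 1 in all 6 libraries.

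The genes differed in how far they sat in these 68 nuclei, which the sum of all 36 chose. Iigp1 had 146 of its 193 astrocyte UMIs in them (75.6%), Irf7 61.8%, Isg15 43%, Usp18 42.7%, Ifit3 39.3% and Parp14 38.7%. At the other end were Adar with 3.5%, Ifi27 with 4.02%, Irf9 with 5.96% and Eif2ak2, the kinase PKR that stops translation, with 9.35%. The nuclei made up 1.36% of astrocyte UMIs. A median of 13 different genes of the 36 was detected in them (3 to 24), against 1 in the other astrocytes.

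Many other interferon-stimulated genes, which the choice did not count by name, were also higher in these nuclei. Of 64 other interferon-stimulated genes with at least 20 UMIs in astrocytes, 56 had a higher CPM in the 68 nuclei than in the other astrocytes. In all 6 libraries 27 were higher, and the median ratio was 7.37. The limit of 20 also counted UMIs of the 68 nuclei, so it favoured genes high in them. Among the 64 were near relatives of genes that the choice used, such as Ifit3b, Trim30d and Gbp5. Reads of one may have been counted for another, so these relatives are not independent of the choice. Their part in the counts was not tested. No share over all genes is given beside these counts. The summed level of the wider list, 107 genes taken without that limit, was 7740 to 12710 CPM per library in the 68 nuclei. In the rest it was 1083 to 1203. Cxcl10, a chemokine that draws T cells, had 161 of its 310 UMIs there (1140 against 14.5 CPM), Gbp5 was at 418 against 9.44 CPM and Cd274 (PD-L1) at 361 against 8.66.
Tlr3, the sensor of double-stranded RNA in endosomes, was at 311 against 101 CPM, higher in 6 of 6 libraries. Ifnar1, Ifnar2 and Jak1 were at 21.2, 42.5 and 156 CPM against 28.6, 37.8 and 153. These are sums over nuclei with no test.

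Summed astrocyte markers were at 16861 CPM in these nuclei and 17179 in the rest, from 12923 to 18795 by library against 16795 to 17513. Per 1000 UMIs the median nucleus held 17 UMIs of astrocyte markers in the 68 and 17.2 in the rest, and 0 of microglial, endothelial, fibroblast and border macrophage markers in both. Summed microglial markers were at 340 CPM in the 68 and 290 in the rest, and higher in 3 of 6 libraries. Ependymal markers were at 106 CPM in the 68 and 56.5 in the rest, higher in 5 of 6 libraries, on 15 UMIs in 13 nuclei. Fibroblast markers were at 92 and 148 CPM and endothelial markers at 7.08 and 56.6. The part of other cells' RNA in these nuclei was not tested. The median doublet score was 0.0327 against 0.0398, and the median depth 1800 against 1669 UMIs. In choroid plexus epithelium 4 of 287 nuclei passed the same limit in TBI GFP right (1.39%, interval 0.381 to 3.53%) and 0 of 133 to 266 in each of the other 5 libraries, where 0 nuclei allow shares of up to 1.13 to 2.26%.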

How the data were processed

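Nuclei of 6 hippocampal libraries were sequenced with the 10x 3′ v3.1 kit, per the labels' protocols. Per the submitters' processing notes, the tools were Scanpy and Cell Ranger 7.0.1, with mm10 as the genome. Their parameters are not stated in the labels. The authors deposited whole-number UMI counts, unnormalized, for every nucleus and gene. Cell classes, clusters and a doublet score per nucleus are those deposited by the authors. All 28650 deposited nuclei were kept and no doublet caller was run, and 91 barcodes occurred in more than 1 library (182 nuclei).

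Counts were summed per class and library and fitted with edgeR 4.0.16 (R 4.3.3): filterByExpr, TMM, and an additive model of context and vector with 2 residual degrees of freedom, with Benjamini-Hochberg adjustment over all genes within a class and comparison. Astrocyte clusters were fitted where every library held at least 20 nuclei, which dropped Astrocyte 2. The SE is the log2 fold divided by the root of F. For each gene edgeR draws the spread towards that of all genes, with a weight given as prior degrees of freedom. Its median was 72.4 in astrocytes and 7.46 in inhibitory neurons, and it was infinite in choroid plexus epithelium and fibroblasts. Where it is large, a gene's own disagreement between libraries counts for little. DESeq2 1.42.0, limma 3.58.1 (voom) and other filters, scalings and nuclei were alternatives. The code was tested on simulated data. Descriptions used Python 3.11.15, scipy 1.17.1 and matplotlib 3.10.9. Intervals and limits at 0 (3 counts) cover counting error only.

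Named were genes past an adjusted p of 0.05, the 10 with the smallest vector p in astrocytes, the 2 with the smallest p in each other class and comparison, and up to 4 genes per highest class with at least 30 UMIs there. Some further genes (Ifit1, Ifit2, Bst2, Irf1 and those of the 68 nuclei) were chosen after their values were seen. The members and lists were chosen with earlier results of these data known. One pathway gene is not reported here.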

Additional observations from a re-analysis of the deposited data

How the results depend on the processing

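Over the alternatives, 71 of 78 recomputed counts and medians stayed close to their reported value. The vector comparison gave 1 call with no filter on low counts (Usp18 in astrocytes, adjusted p 0.0159). The injury comparison gave 0 calls with DESeq2, with doublet scores of at most 0.05, and in the alternatives added after seeing the data, without nuclei rich in the 36 genes and without the nucleus with the most Iigp1 UMIs. Leaving out each library in turn gave 0 to 0 calls for the vector, 1 to 1 for injury and 0 to 1 for side. The injury call was Ddx60 in astrocytes without sham GFP and Ddx60 in OPC without TBI VEGFC right, and the side call was Oasl2 in fibroblasts without TBI GFP left (log2 fold 3.47, edgeR adjusted p 0.0362). Within astrocyte clusters the vector count was 1 with doublet scores of at most 0.05 (Iigp1 in Astrocyte 3). The median vector fold in astrocytes ranged from 0.10 to 0.22, and from 0.14 to 0.20 with a library left out. Over all genes the vector calls went from 23 to 236 with no filter and to 0 with DESeq2.

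Among single genes 18 values changed sign, all of genes that had not passed the test. With a library left out, choroid plexus Adar ranged from -1.19 to 0.30 for side and from -1.15 to 0.09 for the vector (0.08 and 0.09 where it changed sign). Microglial Rnf213 ranged from -0.55 to 0.13 for side (0.04 and 0.13), and for injury microglial Ddx60 from -1.06 to 0.15 and OPC Ddx60 from -2.25 to 0.02. Mixed neuron Irf9 ranged from -0.42 to 1.34 for side (-0.42 and -0.22) and from -0.75 to 0.28 for the vector (0.26 and 0.28), and mixed neuron Stat2 from -0.46 to 0.03 for the vector. Oligodendrocyte Ifi27 ranged from -0.15 to 0.67 for the vector. Mixed neuron Irf9 was at -0.03 for side by limma-voom, mixed neuron Stat2 at 0.16 with no context term, and excitatory Herc6 at 0.03 without nuclei holding a microglial or endothelial marker UMI. The cause was not tested. No pairing by mouse was made, because the labels share no replicate number between groups and name no mice. The model's context term matches libraries by surgery and side, and without it the vector comparison also gave 0 calls. With doublet scores of at most 0.05, microglia and fibroblasts could not be fitted, with no nuclei left in 2 libraries each, and mixed neurons kept 2 and 6 nuclei in 2 libraries, with 1 of the 36 genes past the filter. The few microglial and fibroblast nuclei limit what could be tested there.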
